A study of Mus musculus with 6 samples.

Results

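Stellate cell and fibroblast markers were followed in RNA from isolated mouse hepatocytes, as a set of 10 genes given by name: Reln, Pdgfra, Pdgfrb, Lrat, Dcn, Col1a1, Col1a2, Col3a1, Des and Lum. All 10 were found by symbol among the 32061 genes of the count table. The study compared hepatocytes of mice with a senescent liver parenchyma with those of healthy controls, 3 libraries in each group. The senescent mice were AhCre+Mdm2fl/fl and the healthy mice AhCre-. Both groups were 10 to 12 weeks old and had received β-naphthoflavone in corn oil by intraperitoneal injection at 20 mg/kg for 48 h. The AhCre transgene is driven by a promoter that responds to ligands of the aryl hydrocarbon receptor, such as β-naphthoflavone, and its Cre removes the floxed Mdm2, the gene of the main negative regulator of p53. For the controls, the sources used here give no Mdm2 genotype, and the presence of Cre and the deletion of Mdm2 cannot be told apart. Nothing says that each sample came from a separate animal, and the p-values measure only the spread between these samples.

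Hepatic stellate cells lie between the hepatocytes and the sinusoidal endothelium. In a resting liver they store vitamin A as retinyl esters in lipid droplets. When activated by injury they lose these droplets and become myofibroblasts that secrete fibrillar collagen, and platelet-derived growth factor (PDGF) is among their strongest mitogens. Portal fibroblasts are the other main collagen-producing cells of the liver. Hepatocyte preparations are made by collagenase digestion, filtration and a density gradient, and can carry over a few non-parenchymal cells. In such bulk RNA, fewer cells of a type and less RNA per cell cannot be told apart.

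The libraries held 28799392 to 33267299 counts each, and levels are given as CPM, counts scaled to a common library size after TMM scaling (trimmed mean of M values). A count of 0 allows up to 3 counts, or 0.0837 to 0.117 CPM depending on the library, a limit that covers counting error only. The hepatocyte identity of all 6 libraries was plain from Alb, the gene of albumin, at 51520 ± 3860 CPM in the senescent and 90316 ± 9846 CPM in the healthy group (SD, n = 3 each). Of 8 hepatocyte markers 6 fell (4 with scaling by total counts), and Hnf4a and Cps1 did not pass the test. Mdm2 itself stood at 465, 463 and 501 CPM in the senescent and 19.0, 22.7 and 22.0 CPM in the healthy libraries. A count over the whole gene, which includes exons that Cre leaves in place, does not check the deletion. For healthy replicate 2 the column code differs from the sample's label in a single letter, so results that change without this library are given.

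For a view of the sequences behind these genes, the 250 bases before the annotated start were taken from RefSeq for the 6 members in its promoter table (build GRCm38.p6): Reln, Pdgfra, Lrat, Col1a2, Col3a1 and Des. Pdgfrb, Dcn, Col1a1 and Lum had no entry. Shown are the upstream sequences of Reln and Pdgfra, which rose in every setting in which they were tested, and of 2 fibrillar collagen genes, each 5′ to 3′ on the gene's strand. Capitals mark the letters searched on both strands: the TATA box TATAAA, the CCAAT box CCAAT, the GC box GGGCGG and the AP-1 element TGANTCA. A p53 half-site was searched by its consensus and is not capitalised, and its matches may overlap the other motifs. Col1a2 is shown only for the 123 bases that no annotated exon overlaps. Its RefSeq start lies inside the GENCODE M21 bounds given for the gene further on, so its window is upstream of the RefSeq start alone.
Reln, chr5:22344706-22344955, minus strand: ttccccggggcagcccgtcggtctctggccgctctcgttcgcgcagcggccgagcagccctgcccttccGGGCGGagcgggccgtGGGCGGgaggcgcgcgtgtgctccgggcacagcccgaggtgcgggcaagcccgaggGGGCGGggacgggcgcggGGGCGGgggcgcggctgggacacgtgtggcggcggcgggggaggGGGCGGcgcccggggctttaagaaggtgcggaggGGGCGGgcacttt
Pdgfra, chr5:75152001-75152250, plus strand: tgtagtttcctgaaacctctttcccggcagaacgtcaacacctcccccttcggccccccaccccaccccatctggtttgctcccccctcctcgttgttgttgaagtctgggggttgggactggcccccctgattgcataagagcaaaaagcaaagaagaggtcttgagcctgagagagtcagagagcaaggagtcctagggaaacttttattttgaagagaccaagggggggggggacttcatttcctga
Col1a2, chr6:4505370-4505492, plus strand: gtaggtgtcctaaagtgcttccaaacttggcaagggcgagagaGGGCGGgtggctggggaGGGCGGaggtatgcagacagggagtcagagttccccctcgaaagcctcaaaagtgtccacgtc
Col3a1, chr1:45311288-45311537, plus strand: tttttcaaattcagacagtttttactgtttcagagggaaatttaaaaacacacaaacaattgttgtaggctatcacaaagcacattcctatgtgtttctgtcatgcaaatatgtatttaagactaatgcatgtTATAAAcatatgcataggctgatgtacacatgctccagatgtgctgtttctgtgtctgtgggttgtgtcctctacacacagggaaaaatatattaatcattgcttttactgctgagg

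The upstream sequences differed widely in G and C content. Those of Reln, Col1a2, Lrat and Des held a GC box, and those of Pdgfra and Col3a1 did not. Reln had 80.0% G and C over its 250 bases, with 6 GC boxes and 1 p53 half-site, whereas Col3a1 had 35.2%, with 1 TATAAA 117 bases before the start. Pdgfra had 54.4% and held none of the motifs searched. The 250 bases before the RefSeq start of Col1a2 held 2 GC boxes and 1 CCAAT box, the latter outside the stretch shown. Lrat held 1 CCAAT box and 1 GC box, and Des 2 GC boxes. Over 32851 mouse promoters of the same length, 32.7% held a GC box, 33.8% a CCAAT box, 12.4% a TATA box, 6.75% an AP-1 element and 7.13% a p53 half-site. A match describes the letters and is not a site, and a missing match says only that the letters are not in this window.

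All 10 genes had higher mean levels in the senescent libraries, and 6 passed the test: Reln, Pdgfra, Dcn, Col1a2, Col3a1 and Lum rose. The other 4 (Pdgfrb, Lrat, Col1a1 and Des) did not pass, and none fell. The test was edgeR's quasi-likelihood F test over 12949 genes, with a Benjamini-Hochberg adjusted p under 0.05 as the threshold. At an unadjusted p under 0.05, 7 were higher and 0 lower, and no member fell with DESeq2 or limma-voom. Over all genes tested, 20.4% rose and 20.7% fell, against 60.0% and 0.0% of the members. Scaling by total counts alone moved the all-gene median log2 fold change from 0.01 to 0.33, and with it 4861 genes rose and 1285 fell, against 2644 and 2680 with TMM; 7 members rose and none fell. Log2 fold changes of the members ran from 0.83 to 2.62 with a median of 1.36. The senescent and healthy libraries did not overlap for 7 members, always with senescent higher, as was so for 26.8% of all genes tested. Pdgfra passed the filter on low counts through its senescent libraries alone, and Pdgfrb, Des and Col1a1 had 1, 1 and 2 healthy libraries at the filter's level. For genes that pass in this way a difference is partly built in, so these counts describe the set and support nothing further. Without healthy replicate 2, 6 members rose, with Pdgfrb in place of Lum. Without senescent replicate 3, 3 members rose.

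**Figure D1:**
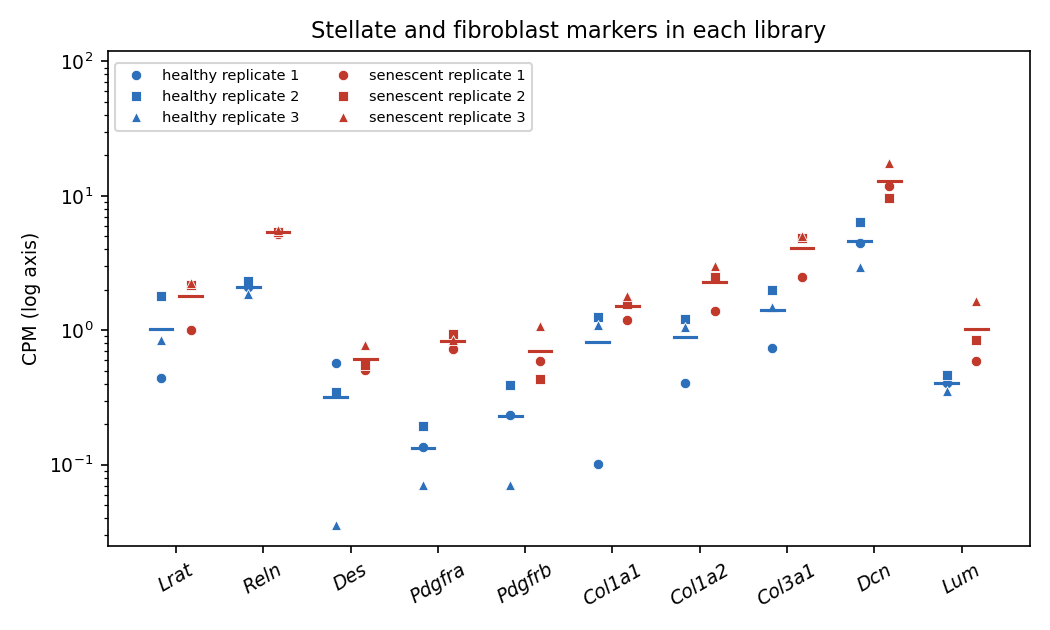
CPM of each of the 10 marker genes (vertical log axis) in the 3 healthy libraries (blue) and the 3 senescent ones (red), with a symbol per replicate and a horizontal line at the group mean. The groups overlap for Lrat, Des and Col1a1 and lie apart for the other 7 genes.

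Summed over the 10 genes, the markers took 25.4, 28.9 and 39.4 CPM of the senescent libraries (912, 991 and 1362 counts) and 9.60, 16.4 and 9.86 CPM of the healthy ones (285, 421 and 279 counts). Every senescent library lay above every healthy one, and senescent replicate 3 and healthy replicate 2 were the highest of their groups. The mean sum was 31.3 ± 7.29 CPM against 11.9 ± 3.84 CPM (SD, n = 3 each), a log2 difference of 1.41 with an SD between libraries of 0.38. With each library left out in turn the log2 difference was 1.23 to 1.66. Dcn alone made up 41.5% of the senescent and 38.7% of the healthy sum. Without Dcn the sums were 13.7, 19.2 and 22.0 CPM against 5.12, 9.96 and 6.89 CPM, which again did not overlap. The sum of the 4 genes that did not pass the test, at 3.29, 4.72 and 5.91 CPM against 1.35, 3.77 and 2.05 CPM, did overlap.

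Among the genes of the resting stellate cell, Reln rose and Lrat and Des did not pass the test. Reln encodes reelin, a large secreted glycoprotein that in the liver is made by stellate cells (chr5:21884454-22344702, minus strand; coordinates of GENCODE M21 on GRCm38 here and below). Its level was 5.22, 5.36 and 5.59 CPM in the senescent libraries (187, 184 and 193 counts) and 2.09, 2.33 and 1.87 CPM in the healthy ones (62, 60 and 53 counts). The libraries of each group lay close together and far from those of the other. Reln rose 2.57-fold, a log2 fold change of 1.36 ± 0.18 (SE; edgeR, adjusted p = 0.000743), and it rose under every alternative setting tried.

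Lrat encodes lecithin retinol acyltransferase, the enzyme that esterifies retinol for storage (chr3:82892579-82903973, minus strand). It stood at 1.00, 2.16 and 2.26 CPM in senescent libraries and 0.438, 1.79 and 0.848 CPM in healthy ones. Senescent replicate 1 lay below healthy replicate 2, so the groups overlapped. The log2 fold change was 0.83 ± 0.51 (SE; edgeR, adjusted p = 0.229).

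Des encodes desmin, the muscle-type intermediate filament of stellate cells and pericytes (chr1:75360329-75368579, plus strand). It was measured at 0.502, 0.554 and 0.782 CPM in senescent libraries (18, 19 and 27 counts) and 0.573, 0.350 and 0.0354 CPM in healthy ones (17, 9 and 1 counts). Healthy replicate 1 lay above 2 of the senescent libraries, and healthy replicate 3 held a single count. The log2 fold change of Des was 0.92 ± 0.64 (SE; edgeR, adjusted p = 0.278).

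Genes around these 3 moved in both directions. In a list of 17 other quiescent stellate cell genes, 13 were tested, 3 rose, 2 fell and the median log2 fold change was 0.60 (5 rose and 1 fell with scaling by total counts). The 17 genes summed to 128, 277 and 172 CPM in senescent and 100, 156 and 333 CPM in healthy libraries, which overlapped. Most of this sum was Steap4, named after its values were seen, at 151 ± 79.3 CPM in the senescent and 156 ± 126 CPM in the healthy group (SD, n = 3 each). Hgf, the gene of hepatocyte growth factor, rose from 0.512 ± 0.413 to 2.72 ± 0.532 CPM (SD, n = 3 each; edgeR, adjusted p = 0.0112). Ecm1, a secreted matrix protein, rose from 6.96 ± 2.81 to 14.1 ± 3.20 CPM (SD, n = 3 each; edgeR, adjusted p = 0.0300), a call lost without healthy replicate 2 or senescent replicate 1 or 3. Angptl6, a secreted angiopoietin-like protein, fell, with a log2 fold change of -0.82 ± 0.23 (SE; edgeR, adjusted p = 0.0231), a call lost with scaling by total counts (adjusted p = 0.107) and without healthy replicate 1 or 2 or senescent replicate 2 or 3.

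The vitamin A genes, many of which hepatocytes also express, mostly fell or did not pass. Of 20 tested out of 24, Lrat among them, 2 rose and 9 fell. Rarg, a retinoic acid receptor, rose from 2.15 ± 0.595 to 14.5 ± 1.02 CPM (SD, n = 3 each; edgeR, adjusted p = 2.97e-05), and Lipe, the hormone-sensitive lipase, also rose. Rdh11, a retinol dehydrogenase, fell from 142 ± 44.3 to 40.3 ± 2.06 CPM, and Pnpla3, a lipid droplet lipase with retinyl esterase activity, from 7.95 ± 3.77 to 1.11 ± 0.0421 CPM (SD, n = 3 each; edgeR, adjusted p = 0.000315 and 0.000454). When libraries were scaled by their total counts alone, 4 of these genes rose and 6 fell.

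The reelin pathway had 8 of 10 genes tested, of which 3 rose and 1 fell (5 and 0 with scaling by total counts). Src, a kinase that phosphorylates the reelin adaptor Dab1, rose from 0.524 ± 0.0750 to 11.4 ± 1.27 CPM (SD, n = 3 each; edgeR, adjusted p = 2.36e-06). Itgb1, an integrin chain, rose from 130 ± 6.39 to 172 ± 12.2 CPM (SD, n = 3 each; edgeR, adjusted p = 0.0186), a call lost without senescent replicate 3. Vldlr, which encodes a reelin receptor, stood at 7.75 ± 1.20 CPM in the healthy group and 4.55 ± 0.799 CPM in the senescent group (SD, n = 3 each). Its fall passed the test (edgeR, adjusted p = 0.0134) but not with scaling by total counts or without senescent replicate 1. The other reelin receptor gene, Lrp8, had 7 senescent and 0 healthy counts, and Dab1 had 3 and 0, under the filter; both were chosen after their values were seen.

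In the intermediate filament list around Des, 6 of 10 tested genes rose and none fell. Among the 6, Synm and Krt19 passed the filter on low counts through their senescent libraries alone, so their rises are partly built in. Synm, the gene of synemin, a partner of desmin in muscle-type filaments, was at 25.2, 44.1 and 47.3 CPM in senescent libraries and at 0.0337, 0.233 and 0.0354 CPM in healthy ones. Lmna, the gene of lamin A and C, rose from 42.3 ± 2.16 to 116 ± 1.11 CPM (SD, n = 3 each; edgeR, adjusted p = 2.40e-05).

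Of the PDGF receptor genes, Pdgfra rose and Pdgfrb did not pass the test. Pdgfra (chr5:75152292-75198215, plus strand) encodes the alpha receptor, which marks liver fibroblasts and stellate cells. It was measured at 0.725, 0.933 and 0.839 CPM in senescent libraries (26, 32 and 29 counts) and at 0.135, 0.195 and 0.0707 CPM in healthy ones (4, 5 and 2 counts). All healthy libraries lay far below all senescent ones, at a few counts each. The difference was 6.24-fold, the largest of the 10 genes, with a log2 fold change of 2.62 ± 0.43 (SE; edgeR, adjusted p = 0.00203). Since Pdgfra passed the filter on low counts through its senescent libraries alone, this difference is partly built in.

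Pdgfrb (chr18:61045150-61085061, plus strand) encodes the beta receptor, through which PDGF-B drives stellate cell proliferation. Its level was 0.586, 0.437 and 1.07 CPM in senescent libraries (21, 15 and 37 counts) and 0.236, 0.389 and 0.0707 CPM in healthy ones (7, 10 and 2 counts). The groups did not overlap, but senescent replicate 2 and healthy replicate 2 lay close together. The log2 fold change was 1.59 ± 0.59 (SE; edgeR, adjusted p = 0.0583). It passed with scaling by total counts (adjusted p = 0.0280), and without healthy replicate 2 or senescent replicate 2 (adjusted p = 0.0497 and 0.0496). The ratio of Pdgfrb to Pdgfra per kb of exon was 1.48, 0.858 and 2.33 in senescent and 3.20, 3.66 and 1.83 in healthy libraries, which overlapped.

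On the ligand side, Pdgfa was at 32.6, 28.3 and 37.4 CPM in senescent libraries and at 4.41, 3.39 and 3.04 CPM in healthy ones, and rose with a log2 fold change of 3.18 ± 0.18 (SE; edgeR, adjusted p = 8.05e-06). Pdgfc rose from 4.70 ± 1.37 to 18.9 ± 3.40 CPM (SD, n = 3 each; edgeR, adjusted p = 0.00034). In the list of PDGF ligands and signalling genes, 4 of 11 tested genes rose and none fell (at an unadjusted p under 0.05, 6 were higher and 1 lower), and 8 rose with scaling by total counts.

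Of the 3 fibrillar collagen genes 2 rose, Col1a2 and Col3a1, and Col1a1 did not pass the test. Col1a1 and Col1a2 encode the chains of type I collagen, the main collagen of scar, and Col3a1 that of type III collagen. Col1a1 (chr11:94936224-94953042, plus strand) was measured at 1.20, 1.57 and 1.79 CPM in senescent libraries and at 0.101, 1.25 and 1.10 CPM in healthy ones. Healthy replicate 1 held 3 counts, whereas healthy replicate 2 lay above senescent replicate 1, so the groups overlapped. The log2 fold change was 0.91 ± 0.63 (SE; edgeR, adjusted p = 0.271).

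Col1a2 (chr6:4504814-4541544, plus strand) was at 1.39, 2.48 and 2.98 CPM in senescent libraries and at 0.404, 1.21 and 1.06 CPM in healthy ones. The lowest senescent library lay just above the highest healthy one. Col1a2 rose 2.57-fold, with a log2 fold change of 1.36 ± 0.44 (SE; edgeR, adjusted p = 0.0371). The call was lost when any of 4 libraries was left out, healthy replicate 1 or 3 or senescent replicate 2 or 3 (adjusted p = 0.0759, 0.0518, 0.0796 and 0.128).

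Col3a1 (chr1:45311538-45349706, plus strand) was at 2.48, 4.84 and 5.01 CPM in senescent libraries (89, 166 and 173 counts) and at 0.741, 1.98 and 1.48 CPM in healthy ones (22, 51 and 42 counts). As for the type I chains, senescent replicate 1 and healthy replicate 1 were the lowest of their groups. Col3a1 rose 2.93-fold, with a log2 fold change of 1.56 ± 0.40 (SE; edgeR, adjusted p = 0.0151), a call lost without senescent replicate 3 (adjusted p = 0.0578). The ratio of Col3a1 to Col1a2 per kb of exon stayed within 1.77 and 2.47 over the 6 libraries. The ratio of Col1a1 to Col1a2 was 1.63, 1.20 and 1.14 in senescent libraries and 0.473, 1.95 and 1.96 in healthy ones.

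Of 39 other collagen chains 21 were tested, 9 rose and 3 fell (11 and 2 with scaling by total counts). The median log2 fold change was 0.65. Among the 9, Col6a2, Col6a3, Col16a1 and Col22a1 passed the filter on low counts through their senescent libraries alone. Their rises are partly built in, so these counts describe the list and support nothing further. Col6a2, Col6a3 and Col16a1 were named after their values were seen. Col22a1, a collagen of tissue junctions, rose from 0.0973 ± 0.0564 to 24.0 ± 4.74 CPM (SD, n = 3 each; edgeR, adjusted p = 1.41e-06). Col12a1, a fibril-associated collagen, rose from 1.62 ± 0.708 to 4.85 ± 0.147 CPM (adjusted p = 0.00537). Col18a1, which hepatocytes express strongly and which yields endostatin, fell from 1460 ± 134 to 878 ± 85.9 CPM, and Col5a3 from 19.8 ± 3.66 to 6.35 ± 2.90 CPM (SD, n = 3 each; edgeR, adjusted p = 0.00507 and 0.00511). Among genes for collagen processing, 1 of 17 tested rose and 5 fell, against 3 and 0 with scaling by total counts. The 1 that rose under TMM was Plod2, a lysyl hydroxylase that forms the collagen cross-links typical of scar, with 763 counts in the senescent and 3 in the healthy libraries. Plod2 also passed the filter through its senescent libraries alone. The falls of Plod1 and Fkbp14, an isomerase of the collagen-folding machinery, were lost with scaling by total counts (edgeR, adjusted p = 0.129 and 0.0778) and without senescent replicate 3, and in addition without senescent replicate 2 for Plod1 and senescent replicate 1 for Fkbp14.

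Dcn and Lum encode decorin and lumican, small leucine-rich proteoglycans that bind collagen fibrils and set their diameter. Both rose, and per kb of exon Dcn was the most abundant of the 10 markers. The genes are neighbours on chromosome 10, Dcn at chr10:97479609-97518143 and Lum at chr10:97565128-97572703, both on the plus strand and 47.0 kb apart. Kera and Epyc, the next genes of the cluster, had 0 counts in all libraries. Dcn was at 11.7, 9.71 and 17.5 CPM in senescent libraries (421, 333 and 603 counts) and at 4.48, 6.42 and 2.97 CPM in healthy ones (133, 165 and 84 counts). The groups were well apart, although Dcn varied within each. Dcn rose 2.80-fold, with a log2 fold change of 1.49 ± 0.31 (SE; edgeR, adjusted p = 0.00574), under every alternative setting tried.

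Lum was at 0.586, 0.845 and 1.65 CPM in senescent libraries (21, 29 and 57 counts) and at 0.404, 0.467 and 0.354 CPM in healthy ones (12, 12 and 10 counts). The healthy libraries lay within a narrow band, and senescent replicate 3 was far above the other senescent libraries. Lum rose 2.52-fold, with a log2 fold change of 1.32 ± 0.45 (SE; edgeR, adjusted p = 0.0457), the weakest call of the 6. It was lost with limma-voom, with the replicate block and without any library but senescent replicate 1 (adjusted p from 0.0593 to 0.168).

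In the list of other small leucine-rich proteoglycans and matrix adaptors, 7 of 10 tested genes rose and none fell. Nid1, the gene of the basement membrane linker nidogen-1, was at 24.5, 23.7 and 41.1 CPM in senescent libraries and at 3.60, 4.55 and 5.62 CPM in healthy ones (edgeR, adjusted p = 0.000137). Lamc1, a laminin chain, rose from 8.21 ± 1.08 to 17.2 ± 2.61 CPM (SD, n = 3 each; edgeR, adjusted p = 0.00133). Podn and Bgn, chosen after their values were seen as relatives of Dcn, were at 7.59 ± 0.696 against 0.620 ± 0.783 CPM and at 8.44 ± 1.68 against 4.71 ± 0.562 CPM (SD, n = 3 each; edgeR, adjusted p = 0.00357 and 0.00863).

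**Figure D2:**
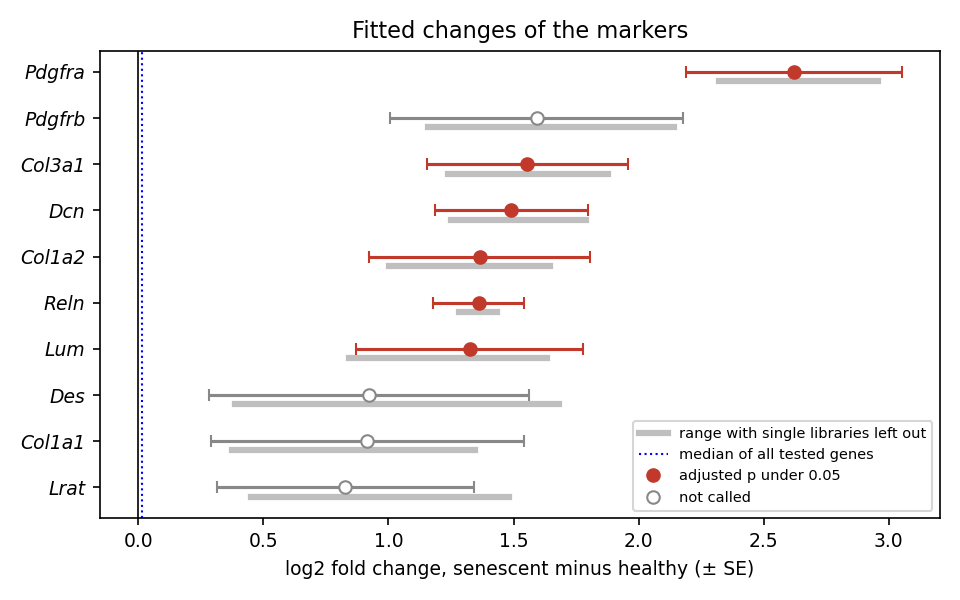
Log2 fold change, senescent minus healthy, of the 10 marker genes (horizontal axis), with bars for the SE, grey bands for the range with single libraries left out and a dotted line at the median of all tested genes. The 6 filled points are the genes with an adjusted p under 0.05, and all 10 values lie above 0, from 0.83 for Lrat to 2.62 for Pdgfra.

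Levels between genes were compared per kb of exon (CPM per kb). Dcn stood first in both groups, at 2.22 ± 0.688 in senescent and 0.792 ± 0.296 in healthy libraries (SD, n = 3 each), and its lowest library in each group lay above the highest of the next gene. In senescent libraries the order then ran Lum, Col3a1, Lrat, Col1a1, Reln, Col1a2, Des, Pdgfrb and Pdgfra, from 0.420 for Lum to 0.0830 for Pdgfra. In healthy libraries it ran Lrat, Lum, Col3a1, Col1a1, Reln, Des, Col1a2, Pdgfrb and Pdgfra, from 0.192 for Lrat to 0.0133 for Pdgfra. Beyond Dcn, every pair of neighbours in either order overlapped over its 3 libraries. Exons of Reln, Pdgfra, Col3a1 and Des overlap other annotated genes, antisense ones for Reln, Pdgfra and Des and microRNA genes for Pdgfra and Col3a1, for which the table held 0 counts or no row, so counts shared with these cannot be told apart.

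**Figure D3:**
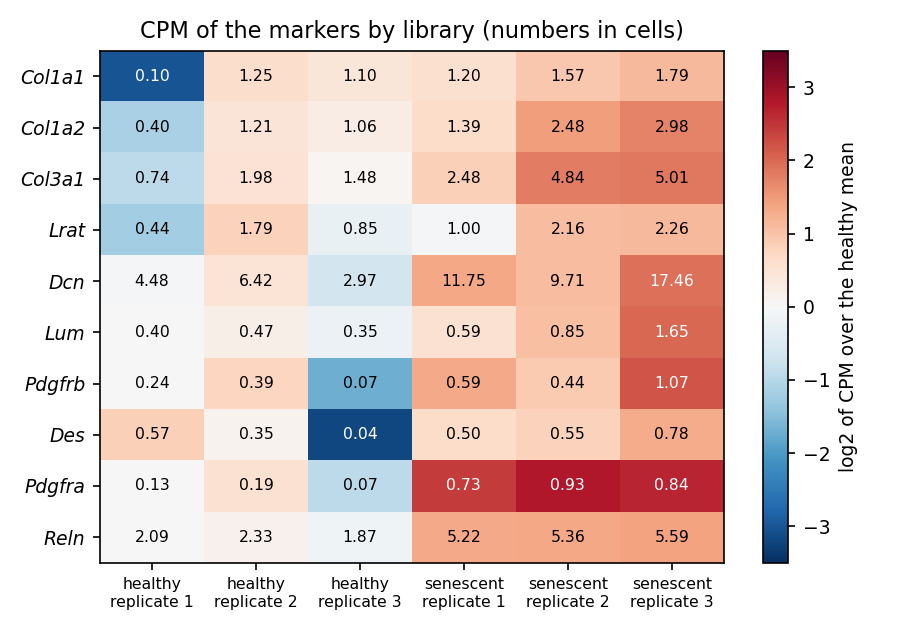
CPM of the 10 marker genes (rows, numbers in cells) in the 6 libraries (columns), coloured by the log2 of the CPM over the mean of the healthy libraries. Senescent replicate 3 is the highest senescent library for 9 genes and healthy replicate 2 the highest healthy library for 9.

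Within the groups, the same libraries tended to be high for most markers. Senescent replicate 3 was the highest senescent library for 9 of 10 genes, with Pdgfra the exception, and senescent replicate 1 the lowest for 8. Healthy replicate 2 was the highest healthy library for 9, with Des the exception. Healthy replicate 3 was the lowest for 6, and healthy replicate 1 for the other 4, which were Lrat and the 3 collagen genes.

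Summed markers of macrophages, of mesothelium and of smooth muscle and pericytes were also higher in every senescent library than in any healthy one. Their part in the result was not tested. Smooth muscle and pericyte genes summed to 410, 461 and 494 CPM in senescent and 278, 314 and 332 CPM in healthy libraries. Most of this sum was Cald1 and Mylk, whereas Cnn1, Actg2, Cspg4 and Lmod1 of the same list had no count. Portal fibroblast genes summed lower in every senescent library, at 213, 164 and 158 CPM against 416, 331 and 300 CPM. Most of this sum was Cxcl12 and Gas6, the latter named after its values were seen. Cxcl12 fell from 202 to 47.1 CPM on average, and Gas6, at 136 and 123 CPM, did not pass the test. Most other genes of this list had too few counts to test, so the sum says little about them. Sums of the quiescent stellate genes overlapped, as did those of the activated myofibroblast genes, and most of the latter was Fn1. Markers of Kupffer cells and other macrophages summed to 477, 343 and 627 CPM in senescent and 295, 338 and 152 CPM in healthy libraries, and 5 of 19 tested rose (10 with DESeq2 and 17 with scaling by total counts). All 19 had a log2 fold change above 0, with a median of 1.02. The ratio of the 10 markers to the macrophage sum was 0.0534, 0.0843 and 0.0629 in senescent and 0.0326, 0.0485 and 0.0649 in healthy libraries, which overlapped. Sinusoidal endothelial markers summed to 262, 228 and 295 CPM against 220, 245 and 187 CPM, and 4 of 20 rose (10 with scaling by total counts). The ratio to the endothelial sum was 0.0970, 0.127 and 0.134 against 0.0436, 0.0669 and 0.0527, with no overlap. Mesothelial markers summed to 1.12, 1.69 and 2.14 CPM against 0.269, 0.584 and 0.318 CPM, of which 1 of 10 was abundant enough to test, Krt19, which bile duct cells share. Wt1 had 0, 1 and 11 counts in the senescent libraries, nearly all in replicate 3, and 0 in the healthy ones. Cholangiocyte markers summed to 90.0, 80.9 and 76.7 CPM against 77.3, 75.6 and 66.3 CPM (3 of 9 tested rose and 1 fell, or 5 and 0 with scaling by total counts). The largest part of this sum was Anxa4, named after its values were seen, at 41.7 against 42.4 CPM. The median log2 fold change of the 9 was 1.31, with 6 above 0. Lymphocyte markers summed to 9.12, 6.03 and 13.5 CPM against 17.4, 8.41 and 4.07 CPM (0 of 2 tested passed with edgeR, and 1 was higher at an unadjusted p under 0.05, with DESeq2 and with limma-voom).

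**Figure D4:**
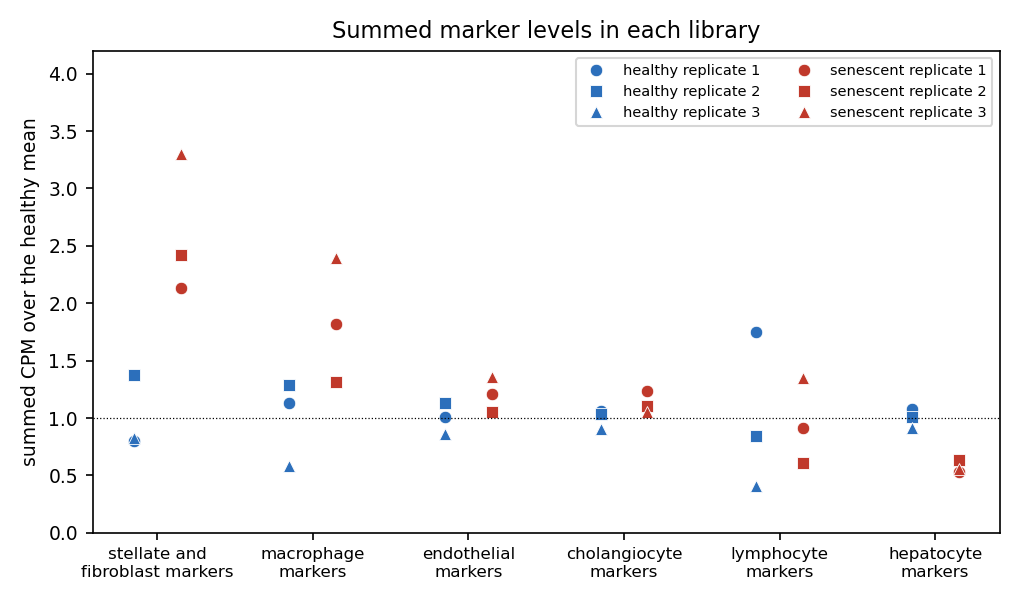
Summed CPM of the 10 markers and of 5 marker lists of other liver cells, each divided by its mean over the healthy libraries (vertical axis, from 0, with a dotted line at the healthy mean), with a symbol per replicate. The 10 markers are apart between the groups (25.4 to 39.4 against 9.60 to 16.4 CPM before the division), as are the macrophage markers, by a narrow margin (343 to 627 against 152 to 338 CPM). Endothelial, cholangiocyte and lymphocyte sums overlap and hepatocyte sums are lower in the senescent libraries. The largest part of the cholangiocyte sum is Anxa4, which did not pass the test.

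Of 24 activated myofibroblast genes 11 were abundant enough to test, 4 rose (Spp1, Pdlim7, Postn and Vim) and none fell. The other 13 had too few counts. Among these, Acta2, the smooth muscle actin that is a classical marker of the myofibroblast, had 3 counts over the senescent and 0 over the healthy libraries. Timp1, an inhibitor of matrix metalloproteinases, had 20 and 2, Lox, which cross-links collagen, 5 and 1, and Cthrc1 none. At the other end Fn1, the gene of fibronectin, which hepatocytes secrete into plasma, stood at 1810 ± 268 CPM in the senescent and 1824 ± 345 CPM in the healthy group (SD, n = 3 each) and did not pass the test. Acta2, Timp1, Lox, Cthrc1, Fn1, Postn and Vim are named here after their values were seen. Spp1, the gene of osteopontin, also made by bile duct cells, rose from 2.90 ± 1.24 to 9.37 ± 1.27 CPM, and Pdlim7, an actin-associated protein, from 3.15 ± 0.832 to 6.05 ± 1.28 CPM (SD, n = 3 each; edgeR, adjusted p = 0.00274 and 0.0182). The Pdlim7 call was lost without senescent replicate 3.

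Of 16 portal fibroblast genes 5 were tested, 0 rose and 1 fell (with DESeq2, 1 rose; at an unadjusted p under 0.05, 0 were higher). The 1 that fell was Cxcl12, a chemokine gene also expressed by other liver cells, from 202 ± 82.7 to 47.1 ± 16.8 CPM (SD, n = 3 each; edgeR, adjusted p = 0.00157). Thy1, a surface marker of portal fibroblasts singled out after its values were seen, had 28 senescent and 12 healthy counts. Of 14 vascular smooth muscle and pericyte genes 7 were tested, 5 rose and none fell. Among the 5, Notch3 and Kcnj8 passed the filter on low counts through their senescent libraries alone, so their rises are partly built in. Notch3, a receptor of pericytes and smooth muscle, had 1723 counts in the senescent and 1 in the healthy libraries, and Abcc9, a potassium channel subunit, rose from 0.657 ± 0.167 to 2.78 ± 1.06 CPM (SD, n = 3 each; edgeR, adjusted p = 0.00256). The list ranged widely in level: Cnn1, Actg2, Cspg4 and Lmod1 had no count and Myh11 had 6 and 5, whereas Cald1, the gene of caldesmon, rose from 237 ± 15.8 to 348 ± 36.4 CPM (SD, n = 3 each; edgeR, adjusted p = 0.00963). Mylk, a myosin light chain kinase, had means of 81.4 CPM in the senescent and 67.4 CPM in the healthy group, a log2 fold change of 0.27 ± 0.16 (SE), and did not pass. Kcnj8, Cnn1, Actg2, Cspg4, Lmod1, Myh11, Cald1 and Mylk were also named after their values were seen.

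TGF-beta is the main inducer of collagen genes in stellate cells. Of 18 tested genes of its ligands, receptors and targets, 6 rose and 2 fell, with a median log2 fold change of 0.45. Tgfbr2, the type II receptor, rose from 7.94 ± 1.39 to 31.3 ± 3.65 CPM, and Pmepa1, a TGF-beta target, from 0.731 ± 0.287 to 6.58 ± 1.63 CPM (SD, n = 3 each; edgeR, adjusted p = 5.56e-05 and 0.000201). Smad6, an inhibitory Smad, fell from 5.79 ± 1.51 to 1.92 ± 0.632 CPM, and Ltbp2, a latent TGF-beta binding protein family member, from 0.556 ± 0.232 to 0.134 ± 0.0614 CPM (SD, n = 3 each; edgeR, adjusted p = 0.00421 and 0.0144). The Ltbp2 call was lost without healthy replicate 1 or senescent replicate 1 or 2.

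**Figure D5:**
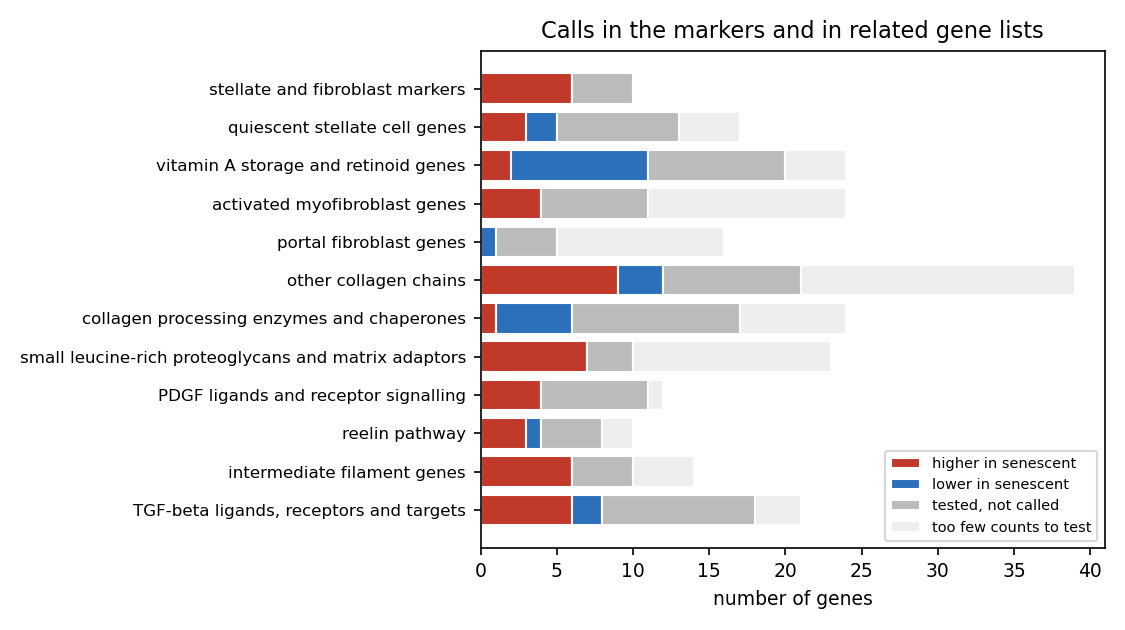
Number of genes (horizontal axis) that were higher, lower or not called in the test, or had too few counts to test, in the 10 markers and in 11 related lists. Of the 10 markers 6 were higher, and the vitamin A list has 9 lower and 2 higher genes.

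The 5 genes whose pattern over the 6 libraries was most like that of the summed markers were Pitpnm1, Hmga1, Ptpre, Tmem184b and Hmga1b. Likeness was the root mean square difference between centred log2 CPM values (prior 0.5 CPM) among 11519 other tested genes with a mean of at least 1 CPM. It was 0.0849 for Pitpnm1, a phosphatidylinositol transfer protein, and 0.105 for Hmga1, a chromatin protein. Ptpre, a protein tyrosine phosphatase, and Tmem184b, a membrane protein, followed at 0.110 and 0.114. Hmga1b, at 0.135, is a near-identical copy of Hmga1, so reads may be shared between the pair. Of the markers, Dcn was closest to the sum it contributes to, at 0.213, and Des farthest, at 0.569.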

How the data were processed

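Polyadenylated RNA of 3 senescent and 3 healthy samples was sequenced as strand-specific libraries, per the labels' protocols. The authors deposited raw counts per gene, whole numbers with no normalisation, in a single table (0 rows named no gene). The submitters' processing notes name build GRCm38, STAR 2.7.1a and featureCounts, with cutadapt 1.16, DESeq2 1.34.0, FastQC and MultiQC 1.3. The sources used here give no annotation release, strand setting or filters. Without them, overlapping and antisense genes are uncertain. Symbols were found for 32009 IDs (99.8%).

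Counts were tested with edgeR 4.0.16 in R 4.3.3 (quasi-likelihood F test, two-sided, filterByExpr with minimum count 10 and minimum total 15, TMM scaling, no covariate). Benjamini-Hochberg adjustment ran over 12949 genes. Standard errors of log2 fold changes were taken as |log2 fold change|/√F. No exact permutation test was used. Alternatives were DESeq2 1.42.0, limma-voom (limma 3.58.1), DESeq2-type size factors, total library size, other filters, an adjusted p under 0.01, a replicate block and each library left out. Exon lengths come from GENCODE M21 on GRCm38 and upstream sequences from RefSeq (GRCm38.p6).

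The members and the 18 other lists were chosen with earlier results of these data known. Further list genes that rose, Krt19, Muc1 and Ccr2 among them, passed the filter on low counts through their senescent libraries alone. Their rises are partly built in, so the counts of genes called in a list only describe it. Muc1 and Ccr2 were named after their values were seen. Named from each list were up to 2 risen and 2 fallen genes with the smallest p, or, where none passed, the 2 most abundant; exceptions are stated in the text. A gene that this rule names is not reported here.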

Additional observations from a re-analysis of the deposited data

How the results depend on the processing

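All 10 markers kept a log2 fold change above 0 in the main analysis and in every alternative run that tested them. With the filter at a mean of 1 CPM only 6 of them were tested. Reln, Pdgfra and Dcn passed in each run in which they were tested. Pdgfra was not tested with the filter at a mean of 1 CPM. It passed the main filter through its senescent libraries alone, so its rise is partly built in. Of the 10 markers 6 rose in the main analysis, 3 at an adjusted p under 0.01, 6 with DESeq2, 5 with limma-voom and 7 with scaling by total counts. With each library left out, 3 to 6 rose, the lowest without senescent replicate 3, and 0 to 0 fell. Over all genes, 2644 rose and 2680 fell. Scaling by total counts gave 4861 and 1285, an adjusted p under 0.01 gave 1570 and 1498, and leaving out each library gave 1836 to 2691 and 1489 to 2789, the fewest falls without senescent replicate 3. Among the genes of the other lists, 59 rose and 29 fell. Scaling by total counts gave 98 and 15, an adjusted p under 0.01 gave 33 and 15, and leaving out each library gave 41 to 66 and 16 to 31 (19 falls without senescent replicate 2 and 16 without senescent replicate 3). The cause of these changes was not tested, other than the stricter threshold and the fewer samples themselves.

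Samples with the same replicate number had correlated deviations from their group means of 0.228, -0.174 and -0.0434 for numbers 1, 2 and 3. Not every sample correlated best with its own number. With means of only 3 libraries, these correlations depend on each other and cannot decide whether the numbers pair the samples. With the replicate block 5 markers rose, against 2576 genes that rose and 2625 that fell in all. Depth limits the markers at a few counts per library, such as Pdgfra and Pdgfrb in healthy libraries, where a difference of a few counts moves the fold change.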
